A study of Homo sapiens with 6 samples.

Results

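The genes described here build and steer the vesicles that carry newly made proteins between the endoplasmic reticulum (ER) and the Golgi apparatus. They were taken from the array by their names: all non-control probes whose gene name began with SEC and a digit, TRAPPC, TMED and a digit or SAR1, together with the COPA, COPB, COPG, COPZ and COPE names and ARF1 to ARF6. This gave 98 of 41000 probes and 59 of 17516 named genes. The study measured RNA in HepG2 cells, a human hepatoma line, on 6 one-colour Agilent arrays, to follow expression over the time of exposure to a plant extract. The arrays held control cells and cells given an extract of Scutellaria baicalensis, abbreviated ESB in the labels, at 100 µg/ml for 1, 3, 6, 12 or 24 h. All cells grew in Eagle's minimum essential medium with fetal bovine serum and antibiotics. Each group was 1 array and no label dates the control, so a difference at 1 time has no replicate check and no p-value, and time in culture and exposure cannot be told apart.

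In the ER, the SEC61 channel threads new secretory proteins through the membrane. The GTPase SAR1 then builds the COPII coat, in which SEC23 and SEC24 form the inner layer and SEC13 and SEC31 the outer cage, and SEC24 is the subunit that selects cargo. The GTPase ARF1 builds the COPI coat, which returns vesicles from the Golgi to the ER. TMED proteins of the p24 family are cargo receptors that cycle between these compartments, TRAPP complexes tether arriving vesicles and activate RAB GTPases, and SEC22B is a SNARE that drives fusion. Hepatocytes secrete most plasma proteins and use this route heavily.

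Of the 59 genes, 52 were well above background on all 6 arrays, 4 on 5 arrays and 1 on 4. HFM1 was well above background only at 3 h, and SEC14L3 on no array. Several names on the array were older ones: SEC31L1 is SEC31A, SEC11L1 and SEC11L3 are SEC11A and SEC11C, and SEC13L1 is SEC13. The naming rule also took in genes outside this route: SEC15L2, now EXOC6B, is an exocyst subunit of the plasma membrane, SEC63D1, now HFM1, is a meiotic DNA helicase, and the SEC14L genes encode lipid-binding proteins. TMED10P1 is a pseudogene nearly identical to TMED10, and SEC22B has pseudogene copies named in RefSeq, so probes of these genes may read more than 1 transcript. All 8 hepatocyte markers looked at (among them ALB and APOA1) were well above background on every array, against 0 to 1 of 3 fibroblast, 1 to 2 of 3 endothelial and 1 to 3 of 3 blood-cell markers.

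The arrays differed in brightness, which bears on every value below. The 75th percentile of processed signal, in the scanner's units, ran 768 (control), 1090 (1 h), 1900 (3 h), 153 (6 h), 420 (12 h) and 1640 (24 h). Probes well above background made a share of 69.8% for control cells. The share was 49.5% after 6 h and 64.4% after 12 h, and at the other times it lay between 70.5% and 73.2%. Levels are given as a scaled signal, the percent of an array's 75th percentile, and differences as log2 of extract minus control. Levels of different probes cannot be set against each other. The error given after ± is how far 1 probe's log2 difference scatters (SD), taken from genes read by a pair of probes. For 1, 3, 6, 12 and 24 h it was 0.35, 0.44, 0.78, 0.68 and 0.69. It leaves out variation between cultures and arrays. In RNA from whole cultures, fewer cells that make a transcript and less RNA per cell cannot be told apart. After scaling, the median difference of all measured genes was 0.37 at 6 h and 0.22 at 12 h, and -0.06, -0.06 and -0.01 at 1, 3 and 24 h.

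The array reads each transcript with a probe of 60 bases. The following probes span more genome than their own length in the files' coordinates, as a probe over an exon junction does, and are shown because the results turn on them or on their disagreement with another probe of the same gene. SEC24C and SEC61G are the members farthest above and below the control at 24 h, and each has this 1 probe. For COPE, SEC13, ARF3 and SEC63, probes of the same gene gave differences that disagreed. All are in lower case, with no part marked.
SEC24C probe: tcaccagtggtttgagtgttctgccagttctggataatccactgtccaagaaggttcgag
SEC61G probe: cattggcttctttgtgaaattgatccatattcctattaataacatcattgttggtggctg
COPE brighter probe: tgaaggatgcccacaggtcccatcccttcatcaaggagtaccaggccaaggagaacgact
COPE dimmer probe: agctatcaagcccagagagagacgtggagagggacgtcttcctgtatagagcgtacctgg
SEC13 dimmer probe: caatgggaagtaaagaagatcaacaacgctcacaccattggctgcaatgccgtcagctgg
ARF3 junction probe: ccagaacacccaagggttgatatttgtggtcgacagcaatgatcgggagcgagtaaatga
SEC63 dimmer probe: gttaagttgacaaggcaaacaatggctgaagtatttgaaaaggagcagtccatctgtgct

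As a whole the genes stayed near the control at 1, 3 and 24 h. Their median log2 differences for 1, 3, 6, 12 and 24 h were 0.06, 0.04, 0.29, 0.26 and 0.005, close to the medians of all genes above. At 1 h, 4 of 57 measured and unsaturated members stood 2-fold or more above the control and 0 as far below it, against 2.24% and 0.663% of all genes. At 3 h, 2 of 55 were higher and 0 lower, against 3.07% and 3.1% of all genes. At 6 h, 15 of 52 were higher and 5 lower, against 23.3% and 9.95%. At 12 h, 11 of 56 were higher and 4 lower, against 12.6% and 8.09%. At 24 h, 5 of 57 were higher and 3 lower, against 6.98% and 9.62%. As shares, the members higher made 7.02%, 3.64%, 28.8%, 19.6% and 8.77% at 1, 3, 6, 12 and 24 h. The 4 genes at 1 h were COPG1, ARF6, TMED2 and SEC24C, of which only SEC24C was also at least 2-fold higher at 24 h. The counts at 6 h and 12 h depend on the zero point. With the all-gene median as zero, 9 members were higher and 8 lower at 6 h, and 4 higher and 8 lower at 12 h. The shares of all genes above were counted with the control as zero, so they do not apply to these counts.

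**Figure D1:**
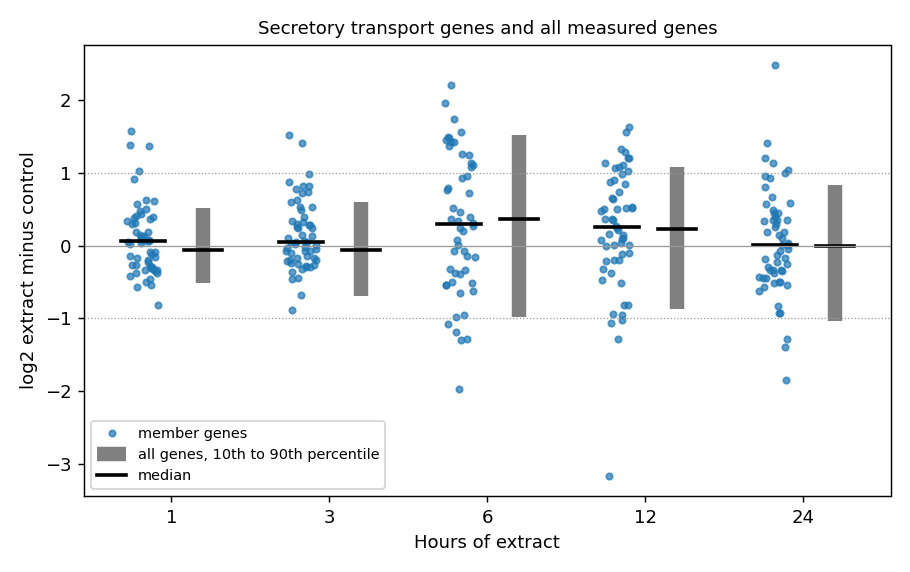
Log2 differences, extract minus control, by hours of extract. Points are the measured secretory transport genes, grey bars run from the 10th to the 90th percentile of all measured genes, black lines are medians and dotted lines mark 2-fold. The genes spread around medians between 0.005 and 0.29, SEC24C stands highest at 24 h (2.48) and ARF6 lowest at 12 h (-3.16).

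Among the 50 members measured at all 5 times, 13 (26%) were above the control at every time, against 17.7% of 10385 genes. 7 (14%) were below it at every time, against 12.4%. 30 of the 50 (60%) stayed within 2-fold of the control at all times, against 54.8% of all genes, and 0 were at least 2-fold higher throughout, against 0.173%.

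**Figure D2:**
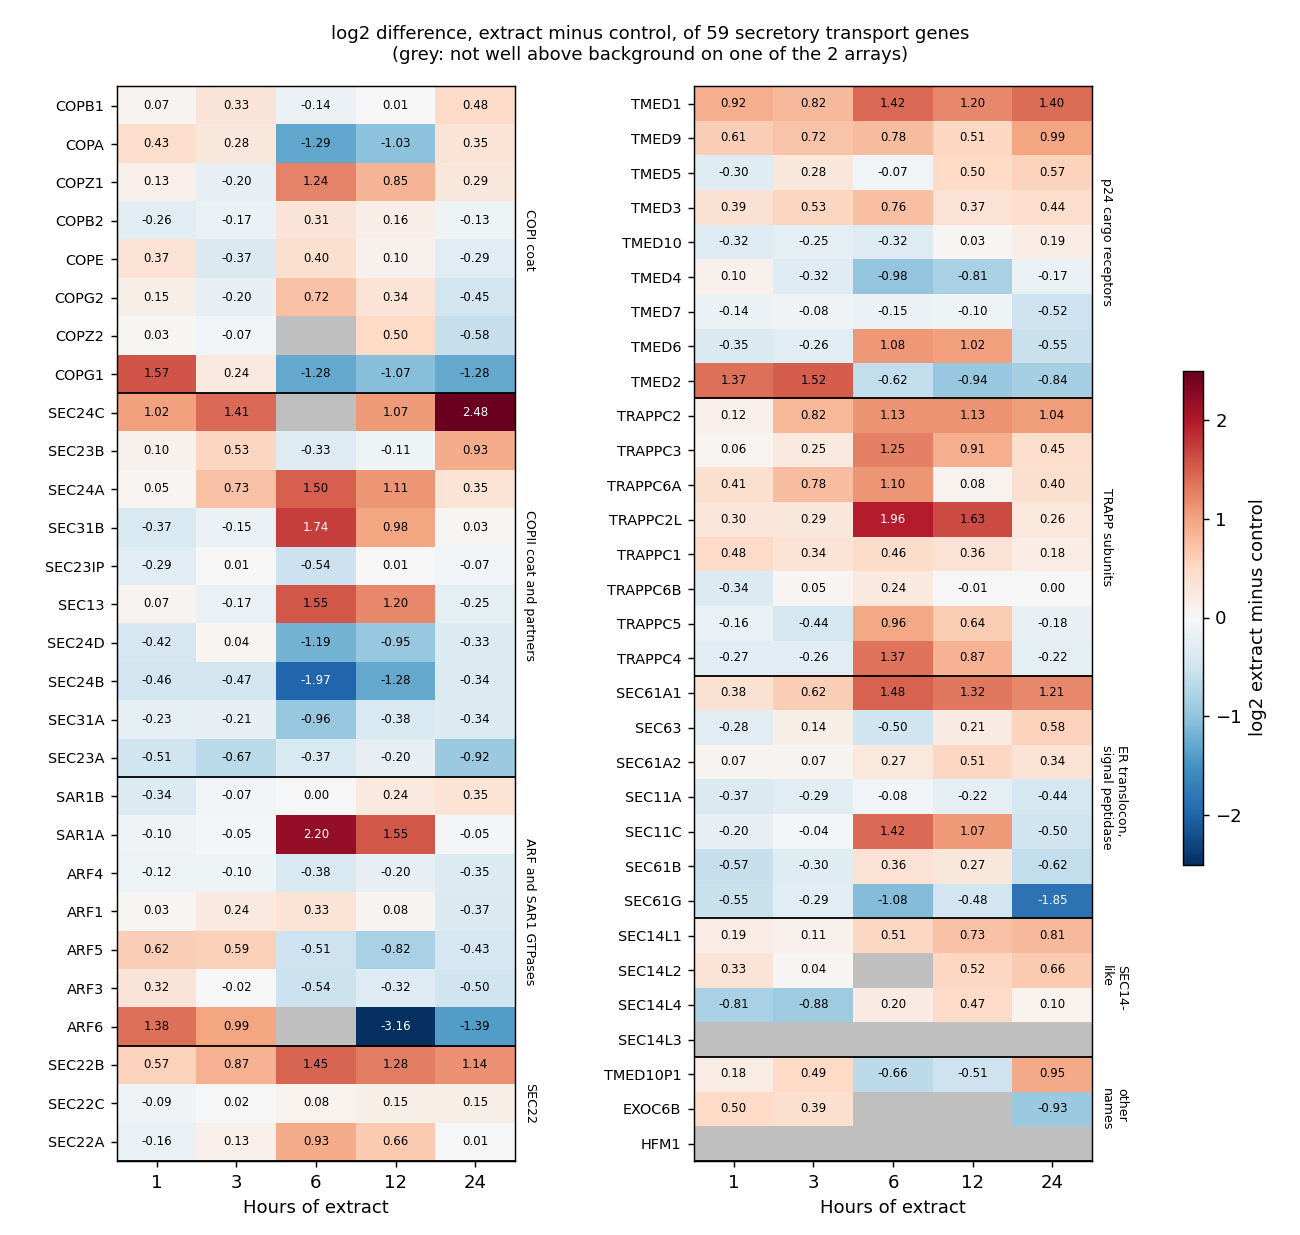
Log2 difference, extract minus control, of each of the 59 genes, in rows grouped by role, at 1 to 24 h of extract in columns; grey cells were not well above background on one of both arrays. Colour is capped at 2.5 either way. The TRAPP rows are above 0 at 6 h, SEC24C is the darkest red at 24 h (2.48), and SEC61G the darkest blue at 24 h (-1.85).

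The member with the largest difference at 24 h was SEC24C, a cargo-selecting subunit of the COPII coat. Its scaled signal ran 5.82% (control), 11.8% (1 h), 15.5% (3 h), 11.8% (6 h), 12.2% (12 h) and 32.4% (24 h), though at 6 h it was not well above background. All arrays with extract were above the control, and the 24 h array was above all others. Log2 differences of 1.02 ± 0.35 (1 h), 1.41 ± 0.44 (3 h) and 1.07 ± 0.68 (12 h) came before one of 2.48 ± 0.69 after 24 h, a 5.56-fold higher level. This placed it at rank 10 from the top of 13039 genes at 24 h. SEC24C was proposed as the marker of these genes with that value known, so its level is a description. With another background correction, normexp, its differences were 0.35 (1 h), 0.49 (3 h), 1.53 (12 h) and 1.47 (24 h), so the 24 h array did not stand above the 12 h array under that setting.

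The other SEC24 genes did not share this course. SEC24A, the closest relative of SEC24B, had 23.2% on the control array and 23.9%, 38.4%, 65.4%, 50% and 29.5% at 1 to 24 h. SEC24B had 73.4% on the control array and 53.5%, 53.2%, 18.7%, 30.2% and 58.1%. SEC24D, the nearest relative of SEC24C, had 204% on the control array and 153%, 211%, 89.5%, 105% and 162%. SEC24A was thus highest at 6 h, where its difference was 1.5 ± 0.78, while SEC24B (-1.97 ± 0.78) and SEC24D (-1.19 ± 0.78) were lowest there. At 24 h the 3 lay at 0.35, -0.34 and -0.33, each within its error of 0.69. A second SEC24D probe was well above background at 3 h alone and bears on none of these differences. With normexp SEC24B was at 0.16 at 6 h and -0.56 at 12 h.

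The rest of the COPII coat showed mixed values. SEC23B, an inner-coat subunit, was at 0.93 ± 0.69 at 24 h, with a scaled signal of 260% on the control array and 279%, 376%, 207%, 240% and 496% at 1 to 24 h. SEC23A, its partner gene, was at -0.92 at 24 h, with 2604% on the control array and 1835%, 1632%, 2013%, 2267% and 1372%. The SEC23 genes thus lay on opposite sides of the control at 24 h, each by somewhat more than the probe error. SEC31B, an outer-cage gene, had 33.7% on the control array and 26.1%, 30.5%, 112%, 66.7% and 34.4%, a difference of 1.74 ± 0.78 at 6 h. SEC31A, the other outer-cage gene, was at -0.96 at 6 h and -0.34 at 24 h. SEC13, also a nuclear pore subunit, had 4948% on the control array and 5211%, 4395%, 14510%, 11357% and 4165%, with 1.55 at 6 h and -0.25 at 24 h. The SEC13 reading at 3 h was saturated. Its 6 h difference was 0.33 with quantile normalization and -0.14 with normexp. Its 12 h difference was 1.20, but 0.36 with quantile normalization and 0.77 with normexp. The 24 h difference was 0.66 with quantile normalization. Thus neither its 2-fold calls at 6 h and 12 h nor its sign at 24 h held throughout. SEC23IP, which binds SEC23, lay between -0.54 and 0.01 at all times by its brightest probe. Of the 10 COPII genes 1, SEC24C, was at least 2-fold higher at 24 h and 0 lower.

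**Figure D3:**
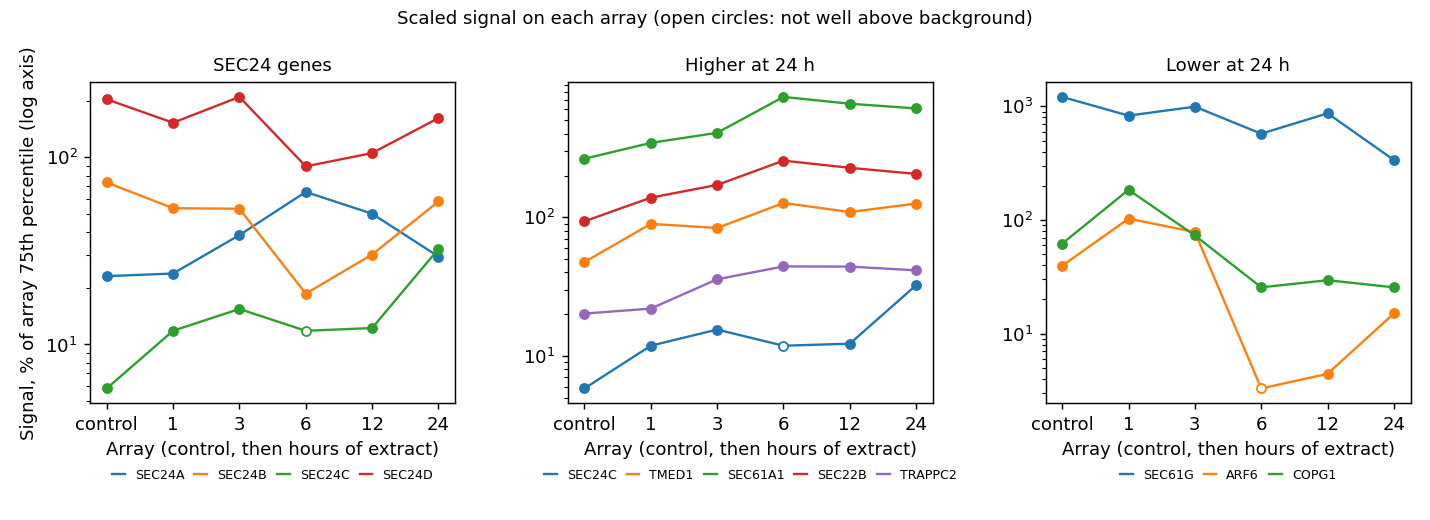
Scaled signal on a log axis, in percent of each array's 75th percentile, on the control array and after 1 to 24 h of extract; lines join the arrays of 1 probe, and open circles were not well above background. The SEC24 panel shows SEC24C at 32.4% at 24 h against 5.82% on the control array. The other panels show the genes at least 2-fold higher and at least 2-fold lower at 24 h.

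The COPI coat subunits lay around the control at 24 h, with a median of -0.21 over 8 genes. COPG1, a subunit of the cargo-binding subcomplex, was the exception. It had 62.0% on the control array and 184%, 73.2%, 25.6%, 29.5% and 25.5% at 1 to 24 h. It was therefore highest at 1 h, with a difference of 1.57 ± 0.35, and below the control on the 3 latest arrays, with -1.28 ± 0.78, -1.07 ± 0.68 and -1.28 ± 0.69. With normexp its differences were 0.34 at 6 h and -0.39 at 12 h, which ends both 2-fold calls, and -1.08 at 24 h. COPA, the alpha subunit of the outer layer, had 223% on the control array and 300%, 270%, 90.8%, 109% and 284%, a difference of -1.29 at 6 h. Another, dim COPA probe, at 12.0% at 6 h against 5.05% on the control array, gave 1.25, so the probes passed 2-fold in opposite directions. COPZ2 was dim throughout, with 5.39% on the control array and 5.50%, 5.13%, 6.99%, 7.64% and 3.62%, and a difference of -0.58 at 24 h. COPB1, COPB2, COPE, COPG2 and COPZ1 lay between -0.45 and 0.48 at 24 h by the brightest probes.

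Among the ARF and SAR1 GTPases the largest difference at 24 h was that of ARF6, which acts at the plasma membrane and endosomes rather than the Golgi. It had 39.6% on the control array and 103%, 78.4%, 3.29%, 4.43% and 15.1% at 1 to 24 h. It was above the control at 1 h (1.38 ± 0.35) and 3 h (0.99 ± 0.44) and below it at 12 h (-3.16 ± 0.68) and 24 h (-1.39 ± 0.69). At 6 h it was not well above background. Its control level was 4.36-fold above the lowest signal among probes well above background on the 6 h array. This is no strict bound, since SEC24C, at 11.8% on that array, was not well above background either. With normexp the difference after 12 h was -0.58, so its size rests on the background correction. SAR1A, which starts COPII assembly, had 770% on the control array and 720%, 742%, 3542%, 2257% and 744%, with 2.20 ± 0.78 at 6 h and 1.55 at 12 h by its brightest probe. With normexp its 6 h difference was 0.64, under 2-fold. ARF3, a Golgi ARF, had 848% on the control array and 1055%, 837%, 581%, 679% and 601%, with -0.50 at 24 h. SAR1B, ARF1, ARF4 and ARF5 lay between -0.43 and 0.35 at 24 h by the brightest probes. The median of the 7 GTPases at 24 h was -0.37 by the brightest probes and 0.14 with all probes of a gene averaged.

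Among the 9 p24 cargo receptors, TMED1, TMED3 and TMED9 were above the control at every time. TMED1 had 47.5% on the control array and 89.6%, 83.7%, 127%, 109% and 126% at 1 to 24 h, with a difference of 1.4 ± 0.69 at 24 h. TMED9 had 326% on the control array and 497%, 537%, 561%, 464% and 646%, with 0.99 ± 0.69 at 24 h, though at -0.50 at 6 h with normexp. TMED2, which forms complexes with TMED10, had another course, with 104% on the control array and 268%, 297%, 67.3%, 54.0% and 58.0%. Its difference was 1.37 ± 0.35 at 1 h and 1.52 ± 0.44 at 3 h, and -0.62, -0.94 and -0.84 at 6, 12 and 24 h. A second TMED2 probe gave 1.41, 1.37, -0.65, -1.38 and -1.08, so both probes were high early and low late. The remaining 6 lay between -0.55 and 0.57 at 24 h by the brightest probes. Other measured probes gave 1.12 for TMED5, 0.31 for TMED10 and, dim, -1.02 for TMED4 at 24 h. TMED10P1 was at 0.95 at 24 h, with 88.2% on the control array and 100%, 124%, 55.9%, 61.9% and 170%, while TMED10 was at 0.19.

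All 8 TRAPP subunits were above the control at 6 h, from 0.24 to 1.96, with a median of 1.12 against 0.37 for all genes. 5 of the 8 were at least 2-fold higher there, against 23.3% of all genes. With the all-gene median as zero this held for 1 of the 8, TRAPPC2L, a count to which that share does not apply. The median was 0.75 at 12 h and 0.22 at 24 h, against 0.22 and -0.01 for all genes. With normexp the 6 h median was 0.16, against -0.05 for all genes, and 4 of 8 were above the control. Under that setting 1 was at least 2-fold higher, against 20.8% of all genes, so the 6 h pattern depends on the background correction. TRAPPC2L, a small core subunit, had 354% on the control array and 436%, 433%, 1379%, 1095% and 424% at 1 to 24 h, with 1.96 ± 0.78 at 6 h. On the 3, 12 and 24 h arrays its other probe gave 1.48, 0.42 and 1.29, where the brightest gave 0.29, 1.63 and 0.26. TRAPPC2, the gene mutated in an X-linked skeletal dysplasia, had 20.2% on the control array and 21.9%, 35.7%, 44.2%, 44.0% and 41.4%, with 1.04 ± 0.69 at 24 h, the only one of the 8 at least 2-fold higher then by the brightest probes, and 0.75 with normexp. TRAPPC3 had 374% on the control array and 389%, 445%, 889%, 700% and 509%, with 0.45 at 24 h.

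At the ER membrane, subunits of the same channel lay on opposite sides of the control. SEC61A1, the pore-forming subunit, had 264% on the control array and 344%, 407%, 739%, 660% and 610% at 1 to 24 h. All treated arrays were above the control, with differences of 1.48 ± 0.78, 1.32 ± 0.68 and 1.21 ± 0.69 on the 6, 12 and 24 h arrays. SEC61G, the small gamma subunit, had 1212% on the control array and 829%, 995%, 575%, 869% and 337%. All treated arrays were below the control, with -1.85 ± 0.69 at 24 h, the lowest of all members then. SEC61B, the beta subunit, had 3424% on the control array and 2303%, 2789%, 4405%, 4143% and 2232%, with -0.57 at 1 h and -0.62 at 24 h. The SEC61B reading at 3 h was saturated. The 24 h differences of SEC61A1 and SEC61G kept their sign and size under 4 other settings, from 1.18 to 1.27 and from -1.96 to -1.85. One of these settings, the average over a gene's probes, could not differ, since each of these genes has 1 probe. The 6 h difference of SEC61A1 was 0.11 with normexp. The catalytic signal peptidase subunits SEC11A and SEC11C were at -0.44 and -0.50 at 24 h.

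SEC22B had 93.5% on the control array and 139%, 171%, 256%, 227% and 205% at 1 to 24 h, above the control throughout, with 1.14 ± 0.69 at 24 h. By its brightest probe SEC22C had 151% on the control array and 142%, 153%, 159%, 167% and 167%, with 0.15 at 24 h. Other SEC22C probes gave 0.63 and 1.01 at 24 h, and the mean of all its probes 0.60. SEC22A was at 0.01 at 24 h. Of the lipid-binding SEC14-like genes, SEC14L1 had 397% on the control array and 453%, 427%, 566%, 660% and 695%, with 0.81 at 24 h. SEC14L2 had 7.79% on the control array and 9.82%, 8%, 5.76%, 11.2% and 12.3%, with 0.66 at 24 h. SEC14L4 had 15.6% on the control array and 8.91%, 8.47%, 17.9%, 21.7% and 16.7%, and was the lowest member at 1 h (-0.81) and 3 h (-0.88). The exocyst gene EXOC6B had 19.5% on the control array and 27.6%, 25.6%, 2.12%, 2.60% and 10.2%, with -0.93 at 24 h. It was not well above background at 6 h and 12 h. Its control level was 2.15-fold and 7.20-fold above the lowest signal among probes well above background on those arrays, which is no strict bound.

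The course of each gene was tested with limma as a slope on log2(hours + 1), with the control placed at 0 h. 0 of 57 members and 0 of 13611 genes passed after Benjamini-Hochberg adjustment, and the lowest adjusted p among members was 0.39 (SEC24C). At an unadjusted p under 0.05, 5 members had a rising line (SEC24C, SEC61A1, TRAPPC2, TMED1 and SEC22B) and 2 a falling one (COPG1 and SEC61G), against 3.61% and 6.16% of all genes. The fitted change over 24 h was 1.78 ± 0.56 (SE, 6 arrays) for SEC24C, 1.4 ± 0.45 for SEC61A1 and -2.25 ± 0.82 for COPG1. On simulated data for this slope over the 13611 genes, 0 of 50 genes given a log2 change of 1 were recovered, and 8 of 50 at 2, 21 of 50 at 3 and 37 of 50 at 5. Without the dim 6 h and 12 h arrays, 2 members, SEC24C and SEC61G, passed after adjustment, against 4.57% of all genes. SEC24C was picked with its 24 h value known, and that value enters both fits. Its slopes and p-values are therefore a description and no test of it.

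Members with more than 1 probe showed how far a value depends on where a transcript is read. At 24 h, 6 of 25 members with several measured probes had probes over 1 log2 apart, and at 6 h 7 of 21. The brightest SAR1A probe gave 2.20 after 6 h where the other gave -0.68, and after 12 h they gave 1.55 and -0.57. SEC23A was at -0.37 and -2.93 at 6 h, and SEC63, which works with the channel in post-translational import, at 0.58 and, by the probe printed above and another, -1.41 and -1.26 at 24 h. ARF1 was at -0.37 at 24 h by the brightest probe and at 1.07, 1.09 and -0.32 by the others. ARF3 was at -0.50 and, by the junction probe above, at 1.4, SEC13 at -0.25 and 0.91, and COPE at -0.29, 1.06 and -1.43 by the brighter, the dimmer and another probe. COPZ1 was at 1.24 and -0.31 at 6 h, SEC22A at 0.93 and -0.10 at 6 h, and SEC61A2 at 0.51 and -0.94 at 12 h. By contrast both SEC23B probes gave close values at 24 h, as did both TMED2 probes early on. Sequences of the ARF genes are alike, and whether a probe also reads a relative was not tested. The correlation of a probe's GC content with its difference, over 79 to 90 member probes read on the same arrays, was between 0.10 and 0.29 across the times, against 0.08 to 0.34 over all probes with a gene, a description with no test.

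**Figure D4:**
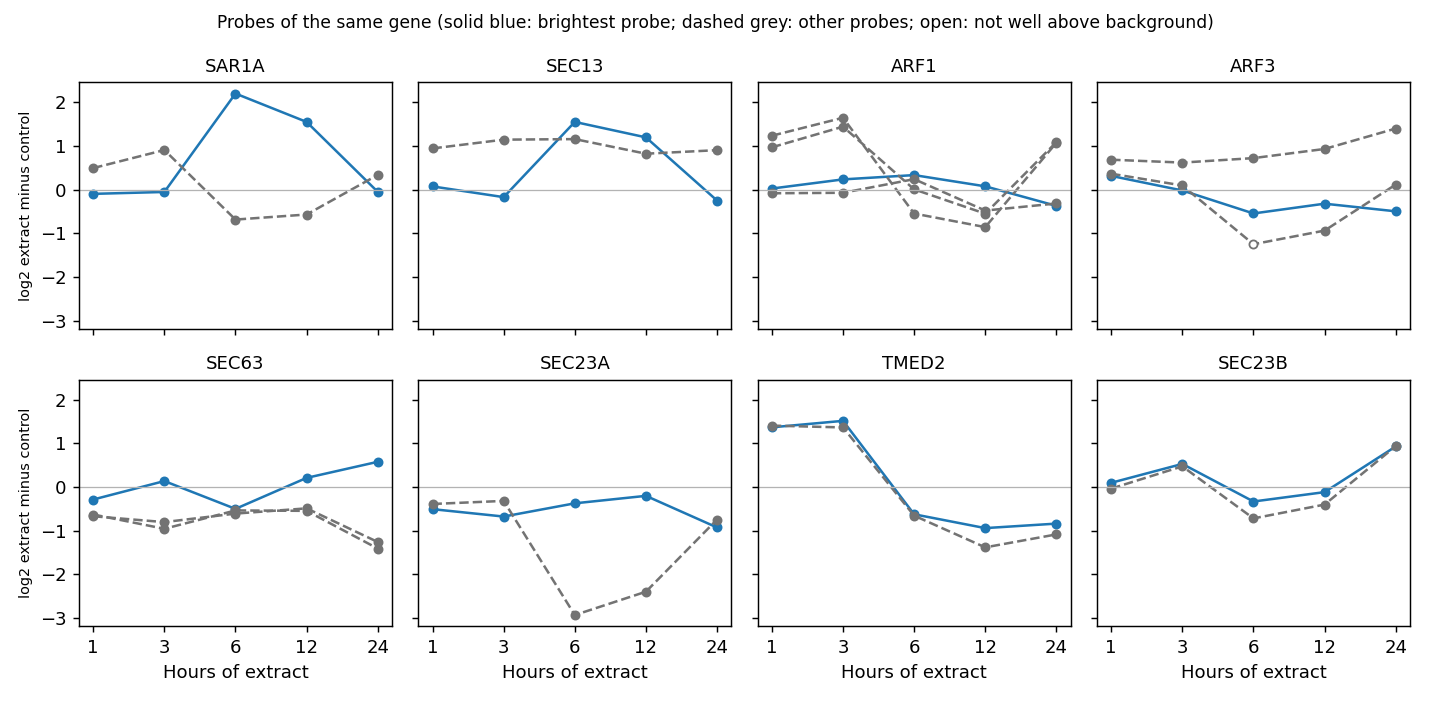
Log2 difference, extract minus control, of each probe of 8 genes by hours of extract; the solid blue line is the brightest probe, dashed grey lines are the others, and open circles were not well above background. For SAR1A the probes part at 6 h (2.20 and -0.68), whereas the TMED2 and SEC23B probes run close together.

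Promoters were matched by symbol to RefSeq (GRCh38.p14) for 53 of the 59 genes, as 250 bases before the start site and 50 from it. The short sequence TGACGTG, the core of an element bound by the unfolded protein response factors ATF6 and XBP1, which switch on secretory genes under ER stress, was found on either strand in 8 of 53 (15.1%), against 1.97% of 35116 promoters and 2.32% of 13784 promoters of array genes. This motif was looked for with the members' values known, and a match is not a bound site. The 8 genes were COPA, COPB1, COPB2, COPE, ARF1, SEC13, SEC23A and SEC24A. At 24 h, by the brightest probes, 0 of the 8 were at least 2-fold higher and 0 lower, against 6.98% and 9.62% of all genes. Their differences then ran from -0.92 to 0.48. Other measured probes gave 1.07, 1.09 and -0.32 for ARF1 and 1.06 and -1.43 for COPE at 24 h. They gave 0.91 for SEC13, -0.74 for SEC23A and 0.10 for COPA. At 6 h 2 of the 8 (SEC13 and SEC24A) were higher and 1 (COPA) lower, against 23.3% and 9.95% of all genes. At 12 h the same 2 were higher and COPA lower, against 12.6% and 8.09%. Medians of the 8 for 1, 3, 6, 12 and 24 h were 0.06, 0.03, 0.32, 0.09 and -0.19. The full ER stress response elements ERSE and ERSE-II were in 0 of 53. ERSE was in 0.0769% of all promoters and 0.123% of array genes, and ERSE-II in 0.0541% and 0.0871%. At shares so low, 0 of 53 says nothing particular about the members. CACGTG was in 6 (11.3%, against 7.26% of all promoters and 9.05% of array genes) and TGACGTCA in 1 (1.89%, against 1.85% and 2.75%). GCGTG, the core read by the aryl hydrocarbon receptor, was in 29 (54.7%, against 36.5% and 45.5%). All were searched on both strands, and none of these motifs contains another.

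The 4 COPI coat promoters that hold TGACGTG are shown with it, or its reverse complement CACGTCA, in capitals; COPB2 holds it at 2 places. The SEC24C promoter, of the member highest at 24 h, holds no TGACGTG, and its single GCGTG is in capitals. Each is read 5′ to 3′ toward the gene.
COPA, chr1:160343201-160343500, minus strand: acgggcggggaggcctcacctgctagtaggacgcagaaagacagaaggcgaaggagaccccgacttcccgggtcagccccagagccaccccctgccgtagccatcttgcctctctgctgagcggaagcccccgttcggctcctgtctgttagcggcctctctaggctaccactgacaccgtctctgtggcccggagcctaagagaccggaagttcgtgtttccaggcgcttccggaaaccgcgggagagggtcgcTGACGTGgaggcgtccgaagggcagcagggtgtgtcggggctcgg
COPB1, chr11:14499762-14500061, minus strand: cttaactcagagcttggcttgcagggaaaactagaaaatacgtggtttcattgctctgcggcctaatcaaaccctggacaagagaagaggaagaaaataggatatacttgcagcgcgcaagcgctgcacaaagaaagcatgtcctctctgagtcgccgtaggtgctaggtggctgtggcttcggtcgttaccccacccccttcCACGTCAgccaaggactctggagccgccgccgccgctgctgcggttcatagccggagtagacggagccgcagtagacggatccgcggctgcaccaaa
COPB2, chr3:139389631-139389930, minus strand: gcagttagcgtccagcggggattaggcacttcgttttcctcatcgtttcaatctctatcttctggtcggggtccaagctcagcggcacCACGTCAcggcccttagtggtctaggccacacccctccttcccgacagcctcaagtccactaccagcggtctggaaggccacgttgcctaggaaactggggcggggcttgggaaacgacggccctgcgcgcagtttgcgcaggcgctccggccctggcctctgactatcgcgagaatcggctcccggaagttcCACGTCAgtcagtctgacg
COPE, chr19:18919338-18919637, minus strand: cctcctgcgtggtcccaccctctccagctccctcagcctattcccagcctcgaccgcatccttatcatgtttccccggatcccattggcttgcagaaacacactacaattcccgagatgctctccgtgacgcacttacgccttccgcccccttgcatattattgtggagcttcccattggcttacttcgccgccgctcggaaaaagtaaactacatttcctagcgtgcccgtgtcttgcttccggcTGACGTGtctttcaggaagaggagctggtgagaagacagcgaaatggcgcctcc
SEC24C, chr10:73744122-73744421, plus strand: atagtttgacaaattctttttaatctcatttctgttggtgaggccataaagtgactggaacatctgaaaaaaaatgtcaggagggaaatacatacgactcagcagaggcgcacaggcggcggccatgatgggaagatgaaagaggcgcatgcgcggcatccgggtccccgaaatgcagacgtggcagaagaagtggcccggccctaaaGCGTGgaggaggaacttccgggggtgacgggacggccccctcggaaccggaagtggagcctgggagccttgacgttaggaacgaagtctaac

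Other genes outside the naming rule, of the same route and of the exocyst, were listed with earlier results of these data known. Their counts of at least 2-fold at 24 h follow, to be read against 6.98% higher and 9.62% lower among all genes. Of 20 SNAREs and partners of the early route, which drive fusion, 3 were higher and 0 lower, with a median of 0.48, and STX10 was at 1.09 and GOSR1 at 1.08. Of 22 ARF exchange factors and GTPase-activating proteins, 5 were higher and 2 lower, with a median of 0.40, and CYTH2, which activates ARFs, was at 1.86 and GIT1, which inactivates them, at -1.84. Of 25 golgins and Golgi tethers, 2 were higher and 1 lower, with ZW10 at 1.45 and COG4 at 1.38. Of 11 RAB GTPases of the ER and Golgi, 1 was higher and 2 lower, with RAB2B at -1.74 and RAB30 at 1.3. Of 19 signal recognition and translocon partners, 2 were higher and 3 lower, with SRP68, of the signal recognition particle, at 1.73 and SSR1, of a complex beside the channel, at -1.26. Of 17 cargo receptors, 1 was higher and 0 lower, with LMAN1L at 1.10 and CNIH2 at -1.0. Of 9 further COPI and COPII factors none passed 2-fold either way, with CUL3 at -0.46 and ARCN1, the delta subunit of COPI, at 0.43. None of 8 exocyst genes passed 2-fold, with EXOC3 at 0.75 and EXOC4 at 0.67.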

How the data were processed

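Total RNA was isolated (RNeasy), linearly amplified and labelled for 1 colour, per the labels' protocols. The dye is Cy5 in the labels, but the scanner columns are of the green channel. The authors deposited unscaled scanner intensity for each spot, including, per the file headers, a background-corrected processed signal, and a table of unscaled intensity that, for at least 99.3% of 35548 probes, lay within 0.51 of the median signal minus local background. No genome build is given in the sources used here for the probes, whose coordinates are not printed.

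The 1639 control spots and 105 probes flagged as outliers were left out. Spots were averaged per probe, log2 taken and the array's 75th percentile subtracted. Probes were named through RefSeq GRCh38.p14 by accession (23434), symbol (2317) or synonym (1038), while 14166 had no match and 45 several. A gene's probe was the one with the highest mean over 6 arrays. Differences needed signal well above background on both arrays, and 2-fold counts no saturation. Slopes used limma 3.58.1 (R 4.3.3) on the 13611 genes that 3 or more arrays read well above background, with 4 residual degrees of freedom that measure scatter about a line, and were tested on simulated data. Precision is limited by the number of arrays. The members and lists were chosen with earlier results of these data known. Values were named by rule: SEC24 genes, the members farthest from the control at each time, the 2 largest per role at 24 h, and genes with discordant probes. Alternatives were quantile normalization, normexp background (offset 50), the authors' deposited values, the mean of all probes, other zero points, filters and time scales, and arrays left out.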

Additional observations from a re-analysis of the deposited data

Results flagged for a closer look

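ARF6 and COPG1 were at least 2-fold from the control in opposite directions at different times. ARF6 differed from the control by 1.38 at 1 h and by -3.16 at 12 h, though by -0.58 at 12 h with normexp. At 24 h ARF6 was at -1.39, and at -1.17 with normexp. COPG1 differed from the control by 1.57 at 1 h and by -1.28 at 24 h. With 1 array per time the difference between times was not tested.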

How the results depend on the processing

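Of 568 named values recomputed for 30 genes under 4 other settings, 525 stayed within the probe error of the value reported. For genes with 1 probe the mean of all probes repeats the reported value, so those values could not move. The sign turned in 45, of which 14 moved by more than that error: 8 with normexp, 5 with the mean of all probes and 1 with quantile normalization. Of these, 4 had been at least 2-fold from the control, all at 6 h with normexp: COPG1 turned to 0.34, SEC13 to -0.14, SEC24B to 0.16 and TRAPPC3 to -0.15. Outside 6 h they included ARF3 at 24 h (0.34) and SEC24D (0.19) and SEC14L1 (-0.54) at 12 h with the mean of all probes, and SEC13 at 24 h (0.66) with quantile normalization. The mean of all probes includes probes at background, such as the second probes of SEC24D and SEC14L1 at 12 h. The cause of the other turns was not tested. With normexp the members at least 2-fold higher numbered 1 of 55 at 3 h, against 1.27% of all genes under that setting. At 6 h 6 of 52 were higher and 19 lower, against 20.8% and 16.96%. The 6 h median was -0.51, against -0.05 for all genes. At 12 h 1 of 56 was lower, against 4.498%. Quantile normalization gave 9 higher and 9 lower of 52 at 6 h, against 14.59% and 11.61% of all genes. The all-gene median as zero gave 9 and 8 at 6 h and 4 and 8 at 12 h. The shares of all genes do not apply to these last counts. Of 57 members, those with a slope at an unadjusted p under 0.05 numbered 1 with normexp, against 3.48% of all genes. Without the 6 h and 12 h arrays they numbered 14, against 24.5% of all genes. Leaving out each array in turn gave from 3 (without the control, against 4.74%) to 17 (without the 24 h array, against 20.4%). Leaving out either the 1 h or the 12 h array gave 4, against 5.36% and 6.78%. After adjustment 0 members passed in each of these fits except 2 without the 6 h and 12 h arrays. The other member counts and medians stayed within 1.5 times or within the error. No paired analysis was possible because each group held 1 array.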
